A study of Homo sapiens with 6 samples.

Results

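The 10 receptor genes MRC2, PLA2R1, IGF2R, SORT1, SORL1, SCARB1, SCARA3, COLEC12, CXCL16 and CD36 were followed in U87 cells sorted by how much of a cyclic peptide they had taken up. They were chosen by name, as mannose-type, VPS10-domain and scavenger receptors outside the LDL receptor family, and all 10 were found among the 25680 gene symbols of the count tables. U87 is an established human glioblastoma line. All cells, in both groups, were given 500 nM of the rhodamine-tagged cyclic peptide EPP6 for 1 h and were then sorted on rhodamine fluorescence. The high-uptake group was the brightest 30% of the cells and the low-uptake group the dimmest 30%, with 3 libraries each, numbered 2, 3 and 4. No library analysed here came from cells without peptide, both groups are labelled wild type, and a sort on fluorescence does not separate peptide inside a cell from peptide held at its surface.

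These receptors bind extracellular or lumenal ligands, and several carry them into endosomes. MRC2, also called Endo180 or uPARAP, belongs to the mannose receptor family and takes up collagen for breakdown. PLA2R1, of the same family, binds secreted phospholipases A2. IGF2R, the cation-independent mannose 6-phosphate receptor, brings newly made lysosomal enzymes from the Golgi to endosomes and clears the growth factor IGF2 at the surface. SORT1 (sortilin) and SORL1 (SorLA) share the VPS10 domain and move cargo between the Golgi, the surface and endosomes. Scavenger receptors bind modified lipoproteins and many polyanionic ligands: SCARB1 is the receptor for high-density lipoprotein, CD36 binds fatty acids and thrombospondin, and COLEC12 is a collectin-like receptor. SCARA3 is a class A member known for a role in oxidative stress. CXCL16 is a chemokine made as a transmembrane protein, which also binds oxidised lipoprotein.

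The upstream DNA of the most abundant of the 10 receptor genes and of a nearly silent one is shown. Their levels differed more than any of the fold changes between the sorted groups. Both sequences are the 250 bases before the start annotated by RefSeq (GRCh38.p14), on the plus strand, at chr6:159968832-159969081 for IGF2R and chr11:121452064-121452313 for SORL1. Capitals mark the palindrome TCACGTGA, the centre of the element known from the promoters of lysosomal genes, which was searched for after the IGF2R sequence had been seen.
IGF2R: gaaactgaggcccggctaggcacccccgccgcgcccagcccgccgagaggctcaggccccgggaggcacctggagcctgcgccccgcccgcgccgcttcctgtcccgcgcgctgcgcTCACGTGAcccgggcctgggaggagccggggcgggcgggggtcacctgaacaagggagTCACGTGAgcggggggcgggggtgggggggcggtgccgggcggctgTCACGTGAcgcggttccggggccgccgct
SORL1: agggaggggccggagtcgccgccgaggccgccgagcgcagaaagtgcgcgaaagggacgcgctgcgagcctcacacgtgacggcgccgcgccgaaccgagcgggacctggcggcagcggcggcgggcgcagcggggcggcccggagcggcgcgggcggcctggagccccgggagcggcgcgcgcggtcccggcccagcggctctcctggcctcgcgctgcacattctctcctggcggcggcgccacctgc
The IGF2R window held 3 copies of the palindrome and 33 CG dinucleotides, and the SORL1 window held 0 copies and 45 CG dinucleotides. Only exact matches were counted, and the SORL1 window does hold acacgtga, which differs in its first base. Of all 35116 upstream windows in the RefSeq table, 0.854% held at least 1 copy and 4 held at least 3. The nearly silent gene had the denser CG content of the pair: 8.15% of all windows held at least as many CG dinucleotides as IGF2R and 0.589% as many as SORL1. Windows for 6 of the 10 genes were examined. This count does not show that the RefSeq table lacked windows for the other genes. A match describes the letters of the window and is not a measured binding site.

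Expression per gene length, as the authors' TPM, spread the receptors over a wide range. IGF2R was highest, at 112.2 ± 3.61 TPM in high uptake and 96.7 ± 2.02 TPM in low uptake (mean ± SD, n = 3 each). SCARA3 followed at 83.8 ± 9.26 TPM in high uptake, against 83.3 ± 4.30 TPM in low uptake. MRC2 stood at 88.2 ± 8.65 TPM in high uptake and 62.4 ± 9.31 TPM in low uptake. The ranges of SCARA3 and MRC2 over the 6 libraries overlapped, so their order was not settled. Those of IGF2R (from 94.9 TPM) and MRC2 (up to 97.7 TPM) also overlapped, but IGF2R was above MRC2 within each library. SCARB1 came next, at 28.1 ± 7.22 TPM in high uptake and 24.8 ± 2.65 TPM in low uptake, and then SORT1, at 13.4 ± 1.14 TPM in high uptake and 11.3 ± 0.484 TPM in low uptake. Both had ranges apart from their neighbours. CXCL16 was at 1.05 ± 0.194 TPM in high uptake and 1.28 ± 0.211 TPM in low uptake. SORL1, CD36, PLA2R1 and COLEC12 were at most 0.344 TPM in every library, and neighbours in that order overlapped. Of the reads that fell on the 10 genes, MRC2 and IGF2R together held 74.2% to 77.5% in the high-uptake libraries and 72.2% to 72.8% in the low-uptake libraries.

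**Figure D1:**
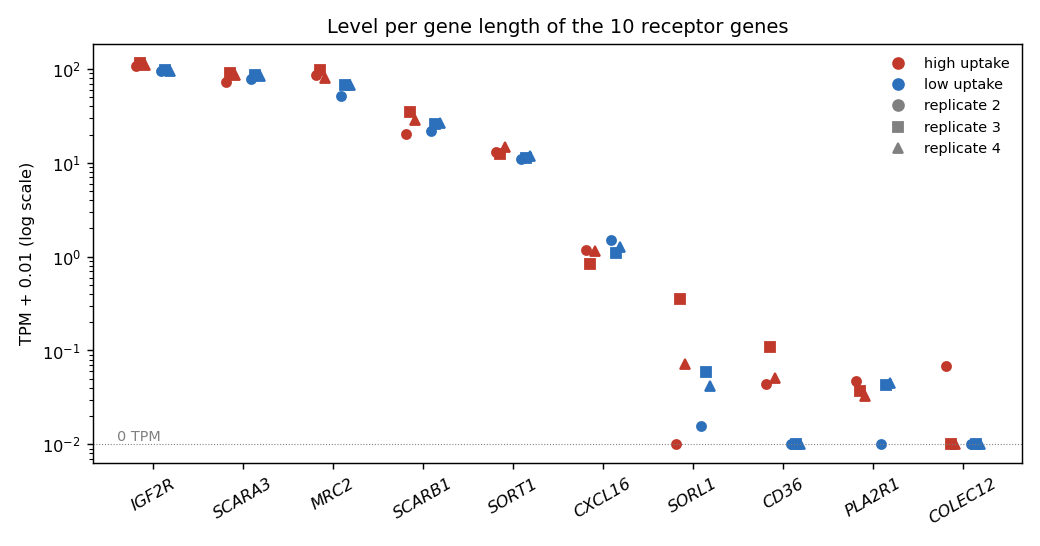
Level per gene length of each receptor gene in each library, as the authors' TPM plus 0.01 on a log axis, with high uptake in red to the left of low uptake in blue and the replicate number as the symbol. IGF2R, SCARA3 and MRC2 lie between 51.7 and 116.2 TPM, and the 4 genes at the right reach at most 0.344 TPM with several libraries at 0.

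Enough reads for a test were found for 6 of the 10 genes, MRC2, IGF2R, SORT1, SCARB1, SCARA3 and CXCL16. None of the 6 passed the threshold of 0.05 on the adjusted p of edgeR's quasi-likelihood test, where 4.29% of all 14598 tested genes passed (3.03% higher and 1.26% lower). At an unadjusted p under 0.05 there were 3, MRC2, IGF2R and SORT1, against 18.4% of all tested genes. DESeq2 called MRC2, among 887 calls over all tested genes, and limma-voom called none of the 6, with 603 calls over all. In the same 3 genes every high-uptake library stood above every low-uptake library, a pattern seen for 13.0% of all tested genes in that direction. The median log2 fold change of the 6 was 0.16, beside -0.00 for all tested genes. In RNA from sorted pools, fewer cells that express a gene and less RNA per cell cannot be told apart.

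MRC2, the collagen receptor, had the largest difference. In TMM-scaled CPM (reads scaled to a common library size), its level was 210 CPM, 242 CPM and 194 CPM in high replicates 2, 3 and 4, and 127 CPM, 170 CPM and 171 CPM in low replicates 2, 3 and 4. The groups did not overlap, and the gap between the nearest libraries was smaller than the SD within either group. The log2 fold change was 0.46 (SE 0.121), or 1.38-fold with an unadjusted 95% interval from 1.15 to 1.66, and edgeR's adjusted p was 0.0568. MRC2 was thus short of the threshold as tested. It passed without a filter on low counts (adjusted p = 0.00672), in DESeq2 (adjusted p = 0.00634), with both libraries numbered 2 left out (adjusted p = 0.0217 in edgeR) and after removal of the GC trend (a smooth dependence on GC content fitted per library, adjusted p = 3.29e-04 in edgeR). After the same step for gene length the log2 fold change was 0.41 and edgeR's adjusted p was 0.132.

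Low replicate 2 was the lowest MRC2 library by a wide margin. Without it, the log2 fold change was 0.33 (edgeR adjusted p = 0.0880). Over all 6 ways of leaving out a single library it ran from 0.33 to 0.54, always higher in high uptake, with adjusted p from 0.0744 to 0.0992 in edgeR.

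IGF2R differed by a small amount between tight groups. It stood at 403 CPM, 436 CPM and 406 CPM in high replicates 2, 3 and 4, and at 359 CPM, 379 CPM and 361 CPM in low replicates 2, 3 and 4. All 3 high-uptake libraries were above the low-uptake libraries, and high replicate 3 was the highest. The log2 fold change was 0.18 (SE 0.0703), or 1.13-fold with an unadjusted 95% interval from 1.02 to 1.26, and did not pass (edgeR adjusted p = 0.199). IGF2R has a long gene model in these files, of 9091 bases, and with the trend with gene length removed its log2 fold change was 0.083 (edgeR adjusted p = 0.654). With the GC trend removed instead, it was 0.17 and passed (edgeR adjusted p = 0.0228).

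SORT1 gave a similar picture at a lower level. Its values were 39.3 CPM, 37.6 CPM and 43.2 CPM in high replicates 2, 3 and 4, and 32.8 CPM, 34.7 CPM and 36.4 CPM in low replicates 2, 3 and 4. The groups were apart by about 1 CPM, between high replicate 3 and low replicate 4. The log2 fold change was 0.21 (SE 0.0914), or 1.16-fold with an unadjusted 95% interval from 1.01 to 1.33 (edgeR adjusted p = 0.240), and 0.14 with the length trend removed (edgeR adjusted p = 0.474).

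SORL1, the other VPS10-domain receptor, was nearly silent and uneven between libraries. High replicates 2, 3 and 4 held 0, 21 and 9 counts, and low replicates 2, 3 and 4 held 1, 5 and 3 counts. The largest count came from the shallowest library, where it made 1.56 CPM with an exact Clopper-Pearson 95% interval from 0.965 to 2.38 CPM. High replicate 2, the deepest library, had no SORL1 read, which allows up to 0.0743 CPM (3 counts). The groups overlapped, and the spread within high uptake was larger than the difference between the groups. Such intervals and limits cover counting error only.

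SCARB1, the lipoprotein receptor, had a wide spread within the groups. It stood at 22.9 CPM, 39.6 CPM and 31.8 CPM in high replicates 2, 3 and 4, and at 24.5 CPM, 29.7 CPM and 30.9 CPM in low replicates 2, 3 and 4. In both groups the library numbered 2 was the lowest. The groups overlapped, and the fold change of 1.10 had an unadjusted 95% interval from 0.850 to 1.42 (log2 0.13, SE 0.168, edgeR adjusted p = 0.737). Its sign rested on high replicate 3, without which the log2 fold change was -0.062.

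SCARA3, the most abundant of the scavenger receptors here, did not separate the groups. Its values were 115 CPM, 145 CPM and 132 CPM in high replicates 2, 3 and 4, and 123 CPM, 140 CPM and 136 CPM in low replicates 2, 3 and 4. The fold change was 0.981 with an unadjusted 95% interval from 0.847 to 1.14 (edgeR adjusted p = 0.925). As for SCARB1 and IGF2R, the library numbered 2 was the lowest of its group on both sides.

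CXCL16 was low and leaned the other way. Its values were 1.14 CPM, 0.816 CPM and 1.11 CPM in high replicates 2, 3 and 4, from 46, 11 and 37 counts. In low replicates 2, 3 and 4 they were 1.47 CPM, 1.09 CPM and 1.27 CPM, from 57, 24 and 26 counts. The groups overlapped by a narrow margin, and the fold change of 0.816 had an unadjusted 95% interval from 0.563 to 1.18 (edgeR adjusted p = 0.580). Exons of CXCL16 share 85 bases with those of MED11 on the opposite strand (GENCODE 29). Also on the opposite strand, MRC2 exons share 507 bases with AC080038.3 and 190 with AC080038.1, and COLEC12 exons share 545 with AP000915.1. Unlike MED11, these partners are absent from the count tables. Whether reads were counted by strand is not given in the sources used here, so reads in these overlaps cannot be assigned.

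**Figure D2:**
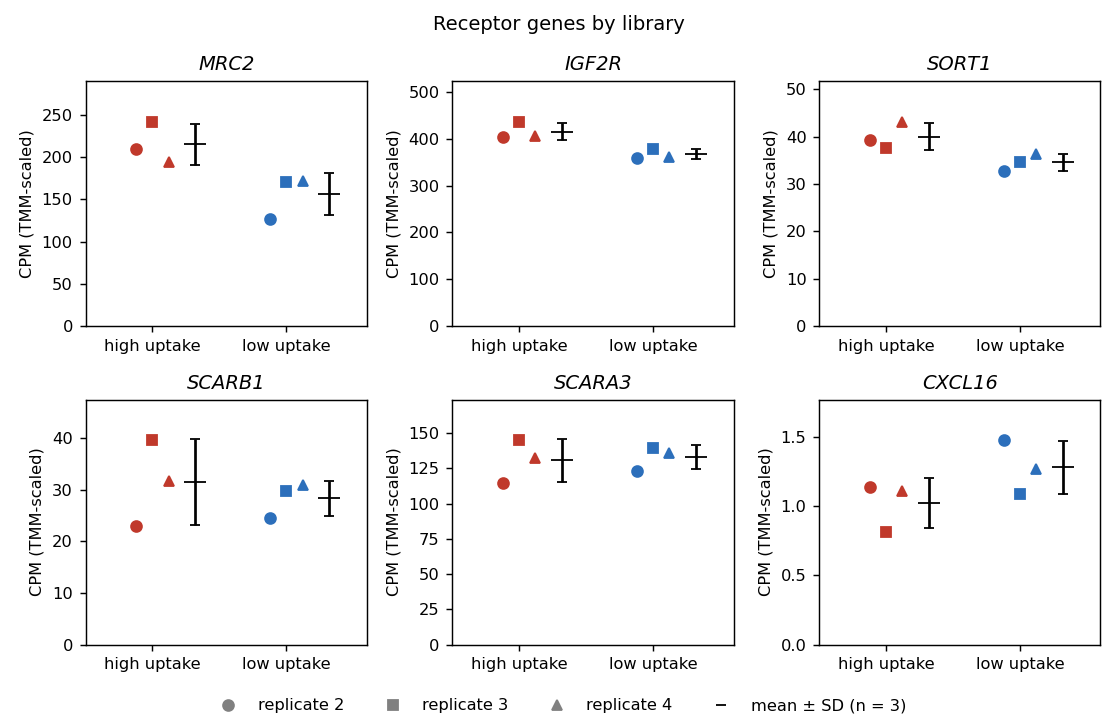
TMM-scaled CPM of the 6 tested receptor genes in each library, with high uptake in red left of low uptake in blue, the replicate number as the symbol, and the mean with its SD (n = 3) in black beside each group. MRC2, IGF2R and SORT1 do not overlap between groups, and the library numbered 2 is the lowest of its group for IGF2R, SCARB1 and SCARA3.

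Several receptors stood high or low in the same libraries. High replicate 3, the shallowest library, was the highest of its group for MRC2, IGF2R, SCARB1 and SCARA3, and the lowest for SORT1 and CXCL16. The summed level of the 10 genes was 791 CPM, 903 CPM and 809 CPM in high replicates 2, 3 and 4, and 668 CPM, 755 CPM and 738 CPM in low replicates 2, 3 and 4. Library totals ran from 13712263 to 40742857 counts in high uptake and from 20295900 to 38048334 in low uptake. The part of depth in these values was not tested.

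The remaining receptors were close to the limit of detection. CD36 had 3 counts in each high-uptake library and 0 counts in each low-uptake library. Since 3 counts is also the limit that a count of 0 allows, no fold is given, and the limits for low replicates 2, 3 and 4 were 0.0776 CPM, 0.136 CPM and 0.147 CPM. With no filter on low counts CD36 was fitted and did not pass (edgeR adjusted p = 0.123). PLA2R1 counts were 4, 1 and 2 for high replicates 2, 3 and 4, against 0, 2 and 2 for low replicates 2, 3 and 4, with overlapping groups. COLEC12 had 3 counts in high replicate 2 and none in any other library. A difference in PLA2R1 or COLEC12 was not detectable at this depth.

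**Figure D3:**
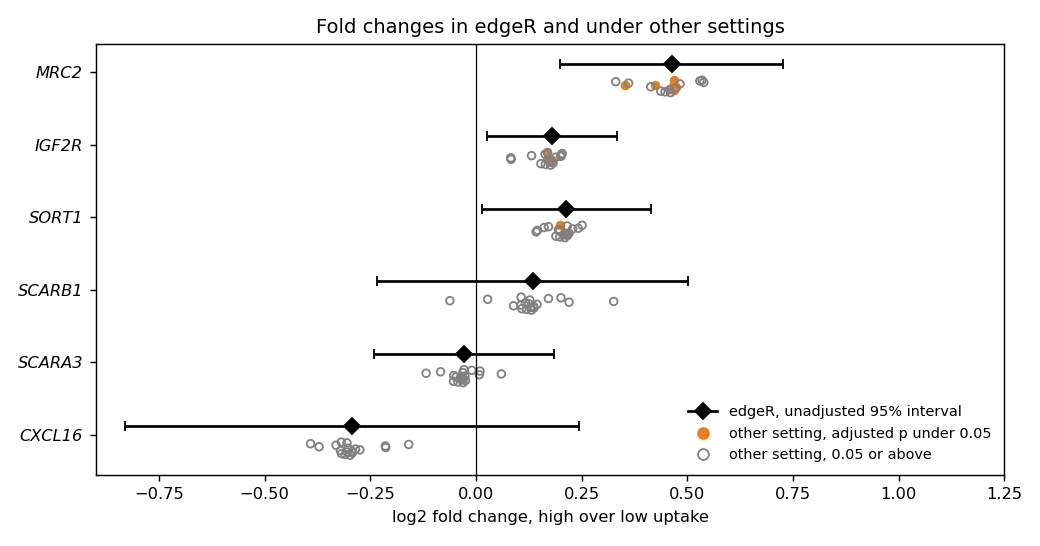
Log2 fold change, high over low uptake, of the 6 tested receptor genes: black diamonds with unadjusted 95% intervals are edgeR as tested, and circles below each are the other settings, filled orange where the adjusted p was under 0.05. MRC2 lies to the right of 0 in every setting, from 0.33 to 0.54, and SCARB1 and SCARA3 have settings on both sides of 0.

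Related receptors gave a single call. Of 21 relatives (the other mannose, mannose 6-phosphate, VPS10-domain and scavenger receptors), 9 were tested and SSC5D rose, none fell, and the median of the 9 was -0.03 on the log2 scale. SSC5D encodes a secreted scavenger protein with cysteine-rich repeats. It stood at 56.0 CPM, 70.4 CPM and 56.4 CPM in high replicates 2, 3 and 4, and at 22.5 CPM, 32.4 CPM and 33.1 CPM in low replicates 2, 3 and 4. Every high-uptake library was well above every low-uptake library, with a log2 fold change of 1.06 (SE 0.147, edgeR adjusted p = 0.00301), and the call held in each of the 19 other settings. M6PR, the smaller mannose 6-phosphate receptor, stood at 208.8 ± 9.55 CPM with high uptake, against 213.5 ± 12.8 CPM with low uptake (log2 -0.03, SE 0.0775). SCARB2, the carrier of glucocerebrosidase, had 315.8 ± 28.8 CPM with high uptake, against 323.3 ± 28.3 CPM with low uptake (log2 -0.03, SE 0.0907). Neither passed in edgeR. MARCO had no count, and MRC1, LY75, MSR1, OLR1 and SORCS3 were each below 1 CPM on average.

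The collagens that MRC2 binds were among the larger differences. Of 9 tested collagen genes 7 rose and none fell, and the median over those tested was log2 0.94. The collagens were already known to be higher in these libraries when the list was made, so this count is not independent evidence. COL6A3, a chain of type VI collagen, averaged 3003 ± 266 CPM with high uptake, against 1763 ± 53.4 CPM with low uptake (log2 0.77, SE 0.0782, edgeR adjusted p = 5.66e-04, n = 3 each). COL1A1 and COL1A2, the chains of type I collagen, rose by 0.98 and 1.37 on the log2 scale. The number of collagens that passed was 9 of 9 without both libraries numbered 2, and 5 of 10 without high replicate 3. MRC2 itself differed by 0.46 on the log2 scale and did not pass.

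Genes for proteins that work beside MRC2 in collagen breakdown differed less. Of PLAUR, PLAU, MMP14 and MMP2, 1 of 4 passed: MMP2, a gelatinase, at 3139 ± 210 CPM with high uptake, against 2427 ± 267 CPM with low uptake (log2 0.37, SE 0.0894, edgeR adjusted p = 0.0414, n = 3 each). That call was lost without any single library, with adjusted p from 0.0628 to 0.0984 in edgeR. It was also lost with upper quartile scaling (0.0599), the stricter filter (0.0606) or the length trend removed (0.0706). Without both libraries numbered 2 it was lost too (edgeR adjusted p = 0.0594), and it held in 9 of the 19 other settings. PLAUR, the urokinase receptor that associates with MRC2, stood at 252.2 ± 15.7 CPM with high uptake, against 240.3 ± 15.5 CPM with low uptake (log2 0.07, edgeR adjusted p = 0.708).

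The cargo and tagging enzymes of the mannose 6-phosphate route were mostly close between the groups. Of 29 tested lysosomal enzymes that carry the tag, SMPD1 rose and none fell, and the median over those tested was log2 0.10. SMPD1, the acid sphingomyelinase, stood at 162.7 ± 10.3 CPM with high uptake, against 127.2 ± 8.95 CPM with low uptake (log2 0.36, SE 0.0848, edgeR adjusted p = 0.0399, n = 3 each). It lost its call without any single library (adjusted p from 0.0620 to 0.127 in edgeR). The call was also lost with upper quartile scaling (0.0544), library totals only (0.0505) or the stricter filter (0.0519). Without both libraries numbered 2 it was lost too (edgeR adjusted p = 0.0655), and it held in 9 of the 19 other settings. None of the 3 tagging enzymes passed in edgeR as tested. GNPTAB, which makes the tag, had the smallest p of them (log2 0.27, edgeR adjusted p = 0.116) and passed with the GC trend removed (edgeR adjusted p = 0.00192). With the GC trend removed, 9 of the 29 enzymes were higher and 3 lower, and all genes gave 1423 higher and 1112 lower calls, beside 442 higher and 184 lower as tested.

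Of 25 adaptors of the Golgi and endosomes and subunits of retromer, 1 fell and none rose, and the median over those tested was log2 0.00. The one was GGA2, an adaptor that loads mannose 6-phosphate receptors and sortilin into carriers at the Golgi. It stood at 42.1 ± 0.996 CPM with high uptake, against 54.7 ± 2.64 CPM with low uptake (log2 -0.38, SE 0.0832, edgeR adjusted p = 0.0277, n = 3 each). Its call was lost without high replicate 2 or 4 or low replicate 3 or 4 (edgeR adjusted p from 0.0781 to 0.162). VPS35, the core of retromer, stood at 190.4 ± 23.1 CPM with high uptake, against 190.0 ± 19.7 CPM with low uptake (log2 0.00, edgeR adjusted p = 0.990).

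Among 25 ligands and partners of the 10 receptors, 13 were tested, 2 rose and none fell, and the median over those tested was log2 0.18. BACE1, the protease that cuts the SORL1 cargo APP, rose by 0.43 on the log2 scale (SE 0.0786, edgeR adjusted p = 0.0115) and averaged 70.3 ± 1.09 CPM with high uptake, against 52.0 ± 1.44 CPM with low uptake. THBS2, a thrombospondin, a family bound by CD36, rose by 0.42 on the log2 scale (SE 0.0833, edgeR adjusted p = 0.0177). Both calls were lost without low replicate 3 (edgeR adjusted p = 0.0510 and 0.0599) or low replicate 4 (0.0578 and 0.0806), and that of THBS2 also without high replicate 2 (0.0536). IGF2, the growth factor that IGF2R clears, had 8 counts over all 6 libraries, and CXCR6, the receptor for CXCL16, had 35.

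**Figure D4:**
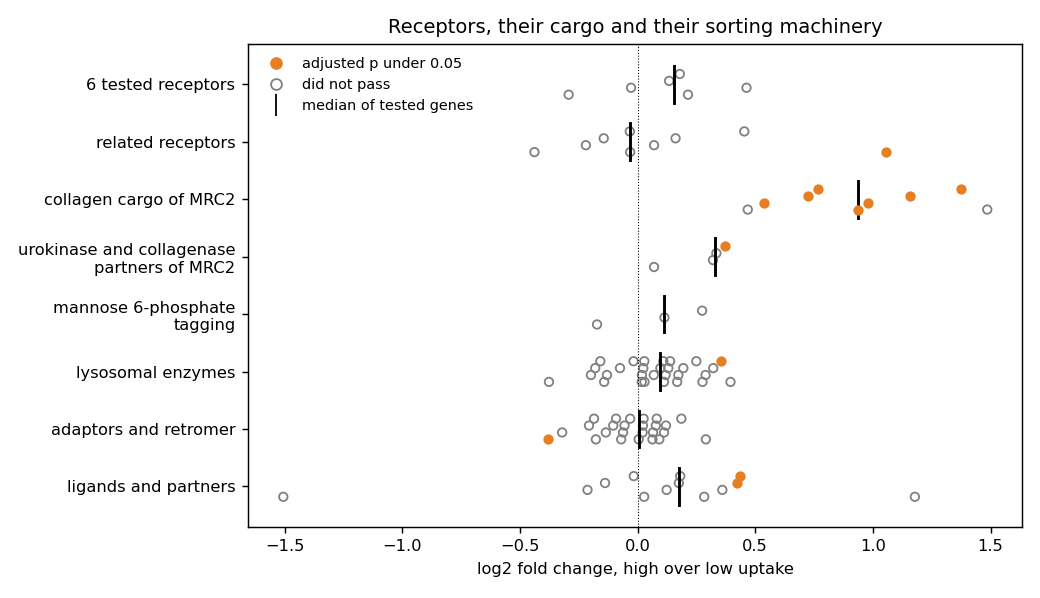
Log2 fold change, high over low uptake, of each tested gene in the receptor set and in the lists of relatives, cargo and sorting genes; filled orange points have an edgeR adjusted p under 0.05 and the black bar is the median of the tested genes in a row. The collagens have the highest median, with 7 of 9 past the threshold, and the tested receptors hold no filled point.

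The genes whose pattern over the 6 libraries was most like that of MRC2, the receptor with the smallest p, were NPTXR, SBSN and RAET1G. The root mean square difference in centred log2 CPM was 0.0344, 0.0375 and 0.0377, among 13178 genes of at least 1 CPM. NPTXR, a pentraxin receptor of neurons, stood at 260.0 ± 26.0 CPM with high uptake, against 188.5 ± 26.0 CPM with low uptake. Its fold change of 0.46 on the log2 scale passed (edgeR adjusted p = 0.0371), but not without high replicate 2, 3 or 4 or low replicate 2 or 4 (0.0533 to 0.0854) and not with the length trend removed (0.0962), upper quartile scaling (0.0506) or the stricter filter (0.0530). SBSN and RAET1G did not pass (log2 0.42 and 0.40, edgeR adjusted p = 0.0750 and 0.149).

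Several scavenger and mannose receptors are used as markers of macrophages, endothelium and fat cells, so such cells were looked for. Of 13 macrophage and microglia markers AIF1, C1QA and C1QB had no count, and 11 were below 1 CPM on average. The summed level of the 13 was 18.7 to 24.0 CPM with high uptake, against 20.4 to 25.1 CPM with low uptake, most of it CSF1R. The 8 endothelial markers summed to 48.7 to 53.4 CPM with high uptake, against 41.1 to 49.7 CPM with low uptake, most of it STAB1, a scavenger receptor, while CDH5 and CLDN5 were below 1 CPM. The other 2 endothelial markers above 1 CPM differed in opposite directions without overlap. KDR, a receptor for VEGF, averaged 4.45 ± 0.598 CPM with high uptake, against 6.22 ± 0.318 CPM with low uptake (log2 -0.49, SE 0.144, edgeR adjusted p = 0.0819). TEK, the angiopoietin receptor, averaged 3.44 ± 0.109 CPM with high uptake, against 2.31 ± 0.463 CPM with low uptake (log2 0.54, SE 0.180, edgeR adjusted p = 0.131). The part of such cells in the receptor values was not tested. The 5 adipocyte markers summed to at most 0.520 CPM, with ADIPOQ at 0. No tested marker of these 3 lists passed in edgeR as tested. With the GC trend removed KDR and CSF1R were lower in high uptake and passed (edgeR adjusted p = 0.0256 and 0.0451), and without both libraries numbered 2 an endothelial marker was higher and passed. As for the line itself, VIM stood at 10534 ± 522 CPM with high uptake, against 10268 ± 338 CPM with low uptake. CD44 averaged 1954 ± 71.6 CPM with high uptake, against 1753 ± 22.1 CPM with low uptake (log2 0.16, edgeR adjusted p = 0.230). OLIG2 and NES leaned lower in high uptake and did not pass. OLIG2 averaged 1.01 ± 0.118 CPM with high uptake, against 1.39 ± 0.0744 CPM with low uptake, without overlap (log2 -0.46, edgeR adjusted p = 0.320). NES averaged 19.9 ± 1.02 CPM with high uptake, against 22.5 ± 3.25 CPM with low uptake (log2 -0.18, edgeR adjusted p = 0.472). The glial markers GFAP, S100B and SOX2 were below 1 CPM. CDKN2A, known to be deleted in U87, had 1 count over all libraries.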

How the data were processed

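RNA from 6 libraries of sorted U87 cells was analysed. Whole-number read counts per gene symbol were deposited by the authors, made with fastp, STAR and featureCounts on hg19 per the submitters' processing notes; their versions, the annotation and the strand setting were not stated there. The authors also deposited TPM and FPKM columns, named so in the file headers; TPM set levels between genes, and FPKM gave gene-model length. A further deposited file held gene symbols with no values (unit: other).

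Genes passing filterByExpr (minimum count 10, total 15) were tested with edgeR 4.0.16 in R 4.3.3: TMM scaling, quasi-likelihood F-test, robust, no covariate, two-sided, Benjamini-Hochberg over 14598 genes, threshold 0.05. SE is the log2 fold change over the square root of F; intervals are 95% and unadjusted. Log CPM used a prior count of 2. Scripts were tested on simulated data. Alternatives were DESeq2 1.42.0, limma 3.58.1 (voom), other scalings, no filter or a stricter one, a replicate block, removal of length or GC trends, and leaving out libraries. Upstream sequences came from RefSeq. GC content was the median over GENCODE 29 transcripts, for 23015 of 25680 symbols.

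The receptors and lists were chosen with earlier results of these data known. Named genes are the 10 receptors, up to 3 called genes per list by p (with no call, the leading gene), and 3 genes nearest in pattern to MRC2; others were named after their values were seen. The labels do not tell whether each library had its own culture; p-values then cover the spread among these libraries alone, and that spread may be technical. The closest libraries, low replicates 3 and 4, had a chi-square over degrees of freedom of 2.35, and the other pairs within a group had 11.5 to 19.6.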

Additional observations from a re-analysis of the deposited data

How the results depend on the processing

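None of the 6 tested receptors passed under other scalings, limma-voom or the removal of the length trend. Under the stricter filter 5 were tested, without CXCL16, and none passed. The count past the threshold was 1 (MRC2) with no filter, in DESeq2, and without both libraries numbered 2. All genes gave 889 calls of 20608, 887 of 14598 and 788 of 14314 in these settings, beside 626 of 14598 as tested. The count was 2 with the GC trend removed, where all genes gave 2535 calls. Without a single library it was 0 each time, while all genes gave 282, 738 and 379 calls without high replicates 2, 3 and 4, and 538, 276 and 232 without low replicates 2, 3 and 4. Without a single library SCARA3 ran from -0.12 to 0.060 and SCARB1 from -0.062 to 0.33 (log2). SCARA3 changed sign, at 0.0078 without both libraries numbered 2, 0.060 without high replicate 2 and 0.0094 without low replicate 3, as did SCARB1 at -0.062 without high replicate 3. The cause was not tested. Same-numbered libraries had correlated deviations of 0.452, 0.304 and 0.0873 for numbers 2, 3 and 4. Each high-uptake library correlated best with the low-uptake library of its own number. Low replicate 4, however, correlated best with high replicate 3 (0.216). The labels do not say whether the numbers pair the samples, and these values do not settle it. With the replicate number as a block, 3 receptors (MRC2, IGF2R and SORT1) and 3176 genes passed. The block gave 1 and 2810 with the length trend removed and, in a fit chosen after seeing the data, 3 and 3968 with the GC trend removed. Counts near 0 limit SORL1, CD36, PLA2R1 and COLEC12.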

Other observations

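The authors' deposited table of gene symbols without values holds 3 of the 10 receptor genes, MRC2, IGF2R and SORT1. Of all tested genes, 15.8% are in the authors' deposited table, as are 620 of the 626 genes called by edgeR. The name of the authors' deposited table gives a minimum count of 10 and a p of 0.05; the test behind it was not stated.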
